A study of Mus musculus with 6 samples.

Results

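A set of 47 bright features of a microRNA (miRNA) array of the mouse uterus is described here, which together carried most of the hybridisation signal with and without estradiol (E2). They were chosen by measured values: a feature entered when its deposited intensity was 300 or more on each of the 4 arrays of the platform. They make up 47 of the 640 features whose IDs start with BM in that platform's value table. CM00001, a bright feature printed 18 times whose nature the files do not state, the 21 dim features whose IDs start with CM, and the empty spots were left out.

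The arrays held the small RNA fraction of uteri of wild-type C57BL/6 females, labelled with Cy5, and each array was hybridised with a single sample. All females had been ovariectomized at 15 weeks of age, and those of replicates 1 and 2 are labelled as 16 weeks old. The vehicle group (arrays vehicle 1 and vehicle 2) received no E2, and the labels do not name the vehicle. The E2 group (arrays E2 1 and E2 2) received E2 at a daily dose of 0.050 mg/kg body weight, and uteri were taken 24 hours after treatment. Replicate 3 of each group lies on a platform with other features and is used only for a comparison of signal concentration. Whether each array stands for 1 mouse or a pool is not stated in the labels, and p-values reflect only how these samples vary among themselves, which may be technical.

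miRNAs are short noncoding RNAs that guide Argonaute proteins to messenger RNAs and lower their translation and stability. In most tissues a small number of miRNA families supplies much of the miRNA pool. E2, the main ovarian estrogen, acts through estrogen receptors and drives growth and fluid uptake of the uterus, which is why ovariectomized females are used to study it against a low hormone background. On an array of this type the signal of a feature depends on how well its probe binds and how well its target was labelled, as well as on the amount of the miRNA. A share of signal is therefore not a share of molecules, and the order of features below is an order of brightness. The files do not pair the feature IDs with miRNA names, so no member is assigned to an miRNA, a family or a cell type, no sequence is shown, and uterine cell type markers were not checked.

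Net signal is the deposited intensity minus background, where background is the median of the array's 194 empty spots times the array's scaling factor (143.8 on vehicle 1, 159.7 on vehicle 2, 153.8 on E2 1 and 151.7 on E2 2). The share of a feature is its net signal as a percent of the sum over all 640 BM features, with negative net signal set to 0. The sums were 233676 on vehicle 1, 190470 on vehicle 2, 59347 on E2 1 and 127720 on E2 2. E2 1 was thus the dimmest array by far. All 47 members had their lowest deposited value on E2 1, and 47 BM features reached 300 on that array, against 93 on vehicle 1, 81 on vehicle 2 and 74 on E2 2. The membership was therefore set by E2 1 alone, and without that array 70 features would have entered. Just inside the threshold were BM11021, with a lowest value of 305.4, and BM10968, with 306.2. Just outside were BM10337, with 287.3, and BM10421, with 286.7.

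Most of the signal of every array lay in the members. They held 88.9% of the net signal on vehicle 1, 92.3% on vehicle 2, 91.0% on E2 1 and 89.1% on E2 2, with a mean of 90.6% ± 2.40 for vehicle and 90.1% ± 1.33 for E2 (SD, n = 2). This is a description, because the members were selected on these intensities. The other 593 features shared the remaining 7.69% to 11.1%. Of these, 17 lay above the dimmest member of the array on vehicle 1, 10 on vehicle 2, 0 on E2 1 and 15 on E2 2, so the members were the 47 brightest features on E2 1 and not on the other 3 arrays. The brightest of the others was BM10188 on both vehicle arrays, with shares of 0.506% and 0.391%, BM10337 on E2 1 with 0.225% and BM10643 on E2 2 with 0.382% (chosen after their values were seen). Members themselves spanned a wide range, and the brightest member exceeded the dimmest by 82.1-fold in net signal on vehicle 1, 68.5-fold on vehicle 2, 57.3-fold on E2 1 and 83.7-fold on E2 2.

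**Figure D1:**
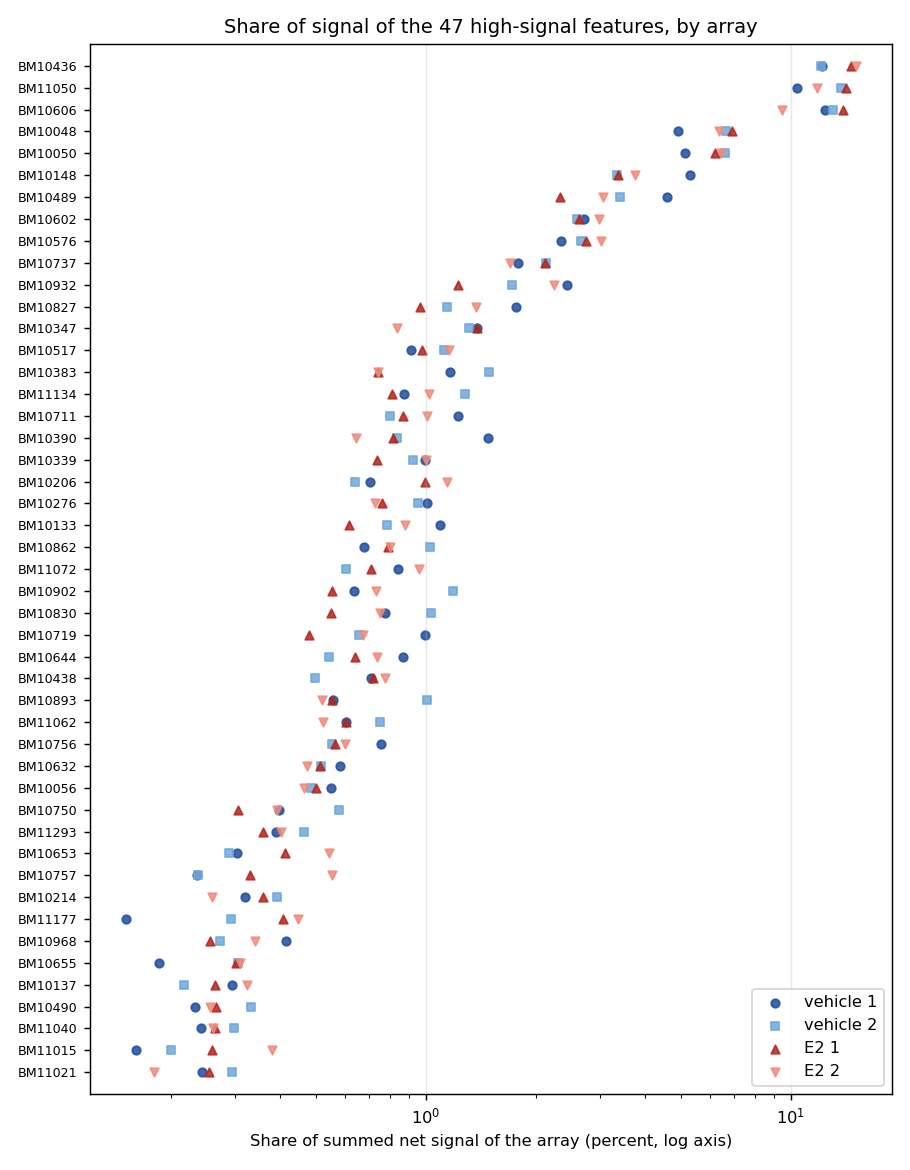
Share of summed net signal (percent, log axis) of each of the 47 high-signal features, ordered from top to bottom by mean share, with a point for each of the 4 arrays. The uppermost 3 features stand between 9.49% and 15.1% on every array, and the vehicle and E2 points of most features are intermixed.

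A handful of features held 50% of the signal. The smallest number of features that together reached 50% was 6 on vehicle 1, 5 on vehicle 2, 5 on E2 1 and 6 on E2 2. To reach 80% took 26, 22, 23 and 27 features on the same arrays, and to reach 90% took 48, 39, 44 and 50. The 10 brightest features of an array held 62.4% on vehicle 1, 66.3% on vehicle 2, 68.9% on E2 1 and 64.2% on E2 2. The E2 arrays lay on either side of vehicle 2, and the mean was 2.24 percentage points higher with E2 (64.3% ± 2.73 for vehicle and 66.6% ± 3.31 for E2, SD, n = 2). The exact permutation test over the 4 arrays gave p = 0.667 (two-sided, 1 after adjustment over 15 measures of concentration), and its smallest possible value is 0.333, so that this design could not pass 0.05. Without vehicle 1 the E2 mean was 0.303 points above vehicle 2, and without E2 1 it was 0.105 points below the vehicle mean, so the direction rested on E2 1. It also depended on the background, since the difference was -12.5 points with none subtracted and 6.37 points with the 95th percentile of the empty spots.

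The groups overlapped in 13 of the 15 measures of concentration. The measures come from the same shares and are not independent. The share of the 3 brightest features entered in 2 forms with equal values on every array. The effective number of features (the inverse of the summed squared shares, which counts how many equally bright features would give the same concentration) was 17.98 on vehicle 1, 15.2 on vehicle 2, 13.4 on E2 1 and 16.4 on E2 2. The Gini coefficient, which is 0 for equal signal and approaches 1 when a single feature holds all, was 0.938, 0.957, 0.949 and 0.941 on the same arrays. The 20 brightest features held 75.3%, 78.6%, 78.5% and 75.3%. In the other 2 measures the groups did not overlap. The brightest single feature held 12.4% and 13.7% with vehicle and 14.6% and 15.1% with E2, and the 37 members outside the upper 10 together held 27.2% and 26.0% with vehicle and 22.1% and 25.4% with E2. The share of the brightest single feature had p = 0.333 by the exact permutation test, the smallest value it can give, and 1 after adjustment. The share of the 37 members is a description, because the members were selected on these intensities, in effect on E2 1.

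**Figure D2:**
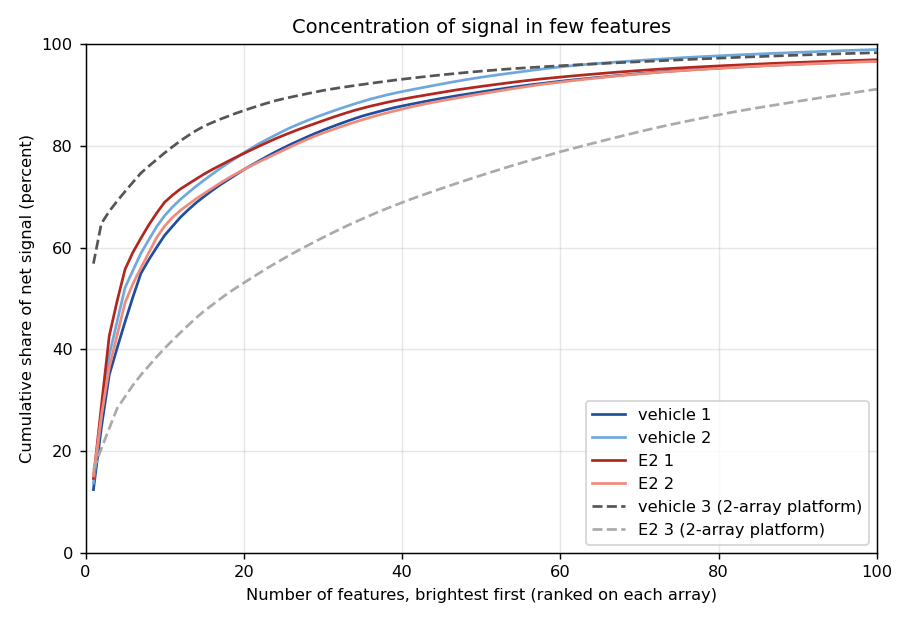
Cumulative share of net signal (percent) against the number of features, counted from the brightest of each array, for the 4 arrays of the platform (solid lines) and the 2 arrays of the other platform (dashed lines). The solid lines run close together and pass 50% at 5 or 6 features, whereas the dashed lines of vehicle 3 and E2 3 lie far apart.

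The 3 brightest features were the same on all 4 arrays. BM10436, BM11050 and BM10606 together held 35.0% of the signal on vehicle 1, 38.8% on vehicle 2, 42.6% on E2 1 and 36.4% on E2 2. The feature of rank 3 exceeded that of rank 4 by 1.97-fold, 1.82-fold, 2.01-fold and 1.48-fold in net signal on these arrays. On vehicle 1, vehicle 2 and E2 1 the spots of rank 3 all lay above those of rank 4 in raw intensity, whereas on E2 2 the lowest spot of rank 3 (11372) lay below the highest of rank 4 (12120). A clear step thus separated these 3 features from the rest on 3 of the arrays.

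Within the leading 3 the order differed between arrays. BM10436 had deposited intensities of 28550 on vehicle 1, 23205 on vehicle 2, 8832 on E2 1 and 19430 on E2 2. Its share was 12.2% and 12.1% with vehicle and 14.6% and 15.1% with E2, so both E2 arrays lay above both vehicle arrays. In quantile-normalized log2 intensity the difference was 0.21 (SE 0.12, limma adjusted p = 0.481), which did not pass the test. After this normalization a value depends only on rank within the array, so that test could not register the size of the change in share. In log2 share the difference was 0.29 (limma SE 0.37, adjusted p = 0.792), which did not pass either. On that scale limma gave all members nearly the same SE (0.37 to 0.38), a spread shared over features. It is not the spread of BM10436 itself, whose replicate arrays differed by 0.0068 (vehicle) and -0.046 (E2) in log2 share. BM10436 had rank 1 on both E2 arrays, 2 on vehicle 1 and 3 on vehicle 2.

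BM11050 had deposited intensities of 24463 on vehicle 1, 26269 on vehicle 2, 8542 on E2 1 and 15244 on E2 2. Its share was 10.4% and 13.7% with vehicle and 14.1% and 11.8% with E2, and the groups overlapped. BM10606 had deposited intensities of 29154 and 24976 with vehicle and of 8387 and 12277 with E2. Its share was 12.4% and 13.0% with vehicle and 13.9% and 9.49% with E2, so the E2 arrays lay on either side of the vehicle arrays. BM10606 was the brightest on vehicle 1 and BM11050 on vehicle 2, while both E2 arrays had the order BM10436, BM11050, BM10606.

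The spots of these features limit what the order can show. On vehicle 1, BM10606 read 29122 ± 3007 and BM10436 read 28519 ± 3560 in raw intensity (SD over 4 spots). On E2 2, where the leading 3 were furthest apart, BM10436 read 23747 ± 4275 and BM10606 read 15005 ± 3080. Even there the lowest spot of the brightest (18306) lay just below the highest spot of the feature of rank 3 (18505). The ratio of BM10436 to BM10606 in net signal was 0.979 on vehicle 1, 0.929 on vehicle 2, 1.05 on E2 1 and 1.59 on E2 2, furthest from equal on E2 2. No spot of a member reached the brightest spot of CM00001 on its array, the highest member spot being 36880 on vehicle 2, where a spot of CM00001 read 46923.

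A pair of features, BM10048 and BM10050, followed at close to equal brightness on every array. BM10048 had deposited intensities of 11626 and 12856 with vehicle and of 4240 and 8253 with E2, with shares of 4.91% and 6.67% and of 6.88% and 6.34%. BM10050 had deposited intensities of 12167 and 12760 with vehicle and of 3840 and 8357 with E2, with shares of 5.15% and 6.62% and of 6.21% and 6.42%. In both features the groups overlapped, and vehicle 1 had the lowest share. The ratio of BM10048 to BM10050 in net signal stayed between 0.955 and 1.11 over the 4 arrays.

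BM10148 and BM10489 came next, both with their highest share on vehicle 1, which stood apart for BM10148 only. BM10148 had deposited intensities of 12489 on vehicle 1, 6523 on vehicle 2, 2146 on E2 1 and 4947 on E2 2. Its share was 5.28% on vehicle 1 against 3.34%, 3.36% and 3.75% on the others, so the difference between the vehicle arrays was larger than that between vehicle 2 and either E2 array. BM10489 had deposited intensities of 10848 and 6649 with vehicle and of 1539 and 4051 with E2. Its share was 4.58% and 3.41% with vehicle and 2.33% and 3.05% with E2. Both E2 arrays of BM10489 lay below both vehicle arrays, with a difference of -0.57 in log2 share (limma SE 0.38, adjusted p = 0.556) that did not pass the test.

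BM10602, BM10576 and BM10737 completed the upper 10. BM10602 had shares of 2.71% and 2.59% with vehicle and of 2.62% and 2.98% with E2, from deposited intensities of 6475, 5102, 1711 and 3964 on vehicle 1, vehicle 2, E2 1 and E2 2. BM10576 had shares of 2.34% and 2.66% with vehicle and of 2.74% and 3.01% with E2, from intensities of 5620, 5232, 1783 and 4001. BM10737 had shares of 1.79% and 2.14% with vehicle and of 2.12% and 1.70% with E2, from intensities of 4322, 4232, 1412 and 2327. Only BM10576 among these had both E2 shares above both vehicle shares.

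Ranks among the brightest features were stable across arrays. In all, 9 features were among the 10 brightest of every array, and 11 features filled the 10 places over the 4 arrays. BM10737 and BM10932 exchanged the last place, BM10932 (named after its values were seen) having rank 9 on vehicle 1 and rank 10 on E2 2 with shares of 2.44% and 2.25%, and rank 11 on vehicle 2 and 12 on E2 1 with 1.72% and 1.22%. Of the 20 brightest, 13 were shared by all 4 arrays, and the 28 features that filled those places were all members. The number shared between a pair of arrays ranged from 9 to 10 of the 10 brightest, and the vehicle arrays had 9 in common, as did the E2 arrays.

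Arrays of the same group were not consistently closer in order than arrays of different groups. Among the 47 members, the median absolute rank difference was 4 for the vehicle pair of arrays, 2 for the E2 pair and 2 to 4 for pairs that crossed the groups. Spearman's rho of net signal was 0.914 for the vehicle pair, 0.952 for the E2 pair and 0.882 to 0.928 for the pairs across groups. These values describe features of the same arrays, which are not independent, and which span a wide range of brightness. Few neighbours in the order were resolved by their spots. Of the 46 pairs of neighbouring members, the spots overlapped in 41 on vehicle 1, 38 on vehicle 2, 40 on E2 1 and 45 on E2 2.

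**Figure D3:**
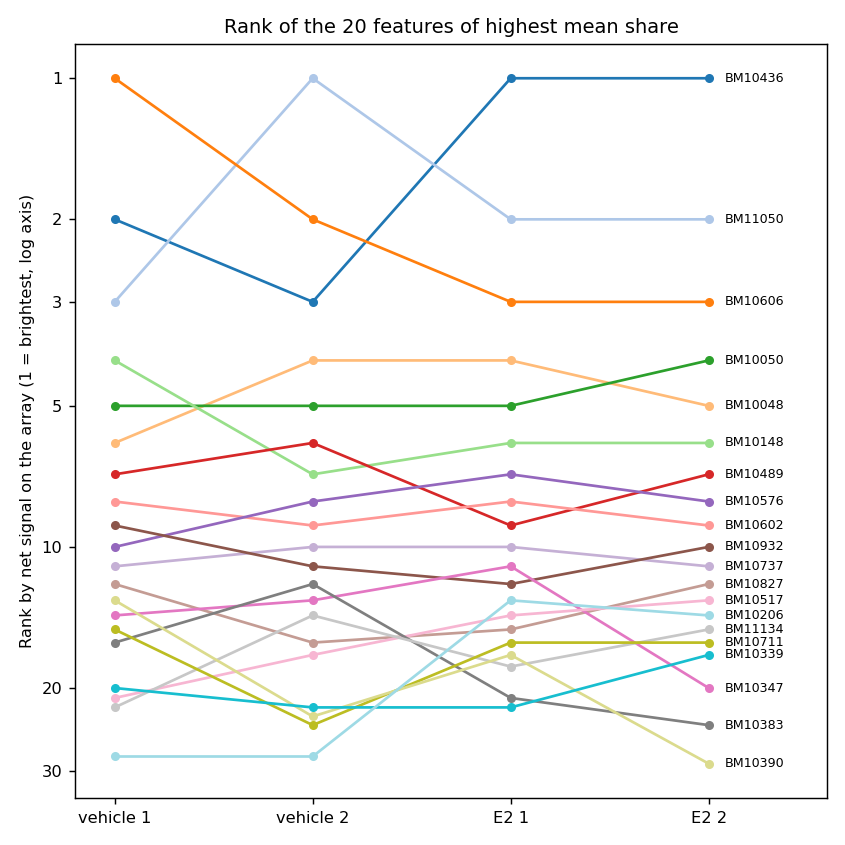
Rank by net signal (1 is the brightest, log axis) of the 20 features of highest mean share on each of the 4 arrays, with a line joining the points of a feature. The upper 3 places are held by the same features throughout, the next places change little, and BM10206 moves from 28 on both vehicle arrays to 13 and 14 on the E2 arrays.

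By group means of the share, ranks also changed little at the upper end. With ranks counted over all 640 features, the 47 members changed rank by a median of 2 places between the group means, 8 members kept their rank exactly, and 13 moved by more than 5 places. Of these 13, 3 belonged to the 20 members of highest mean share. BM11015 moved furthest towards a higher rank, from 61 with vehicle to 40 with E2. Its shares were 0.161% and 0.200% with vehicle and 0.260% and 0.379% with E2, so a change of 21 places corresponded to a small part of the signal. BM10383 and BM10390 moved furthest the other way, by 10 places each, from 14 to 24 and from 15 to 25.

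Shares were compared feature by feature against the spread within groups. In 8 of the 47 members both E2 arrays had a higher share than both vehicle arrays (17.0%), and in 9 both had a lower share (19.1%). Over the 111 features that were tested on this scale the percentages were 14.4% higher and 29.7% lower. The shares of members that did not overlap were thus near the background for higher values and below it for lower ones. The remaining 30 members overlapped. Members had entered through their value on E2 1, whereas 31 of the 65 other BM features that passed the filter on background (64 of them with a log2 share on all 4 arrays) were above background on both vehicle arrays and not on both E2 arrays. The sets thus entered by unlike filters, and an effect of the filters on the counts was not tested. No difference between the sets is read from these counts.

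Pairs of arrays were compared in log2 share over the 47 members. The SD of the difference was 0.48 between vehicle 1 and vehicle 2 and 0.34 between E2 1 and E2 2. It was 0.42 to 0.53 in the 4 pairs that crossed the groups, so the vehicle pair lay within the range of the pairs across groups and the E2 pair below it. Between the vehicle arrays, 7 members had a share more than 1.5-fold higher on vehicle 1 and 5 on vehicle 2. Between the E2 arrays, only 1 was more than 1.5-fold higher on E2 1 and 2 on E2 2. Between the group means, each an average of 2 arrays and so less variable than a single array, 5 were more than 1.5-fold higher with E2 and 2 more than 1.5-fold lower, and the other 40 differed by less. The extremes within the vehicle group were BM10390, 1.78-fold higher on vehicle 1, and BM11177, 1.94-fold higher on vehicle 2 (chosen after their values were seen).

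**Figure D4:**
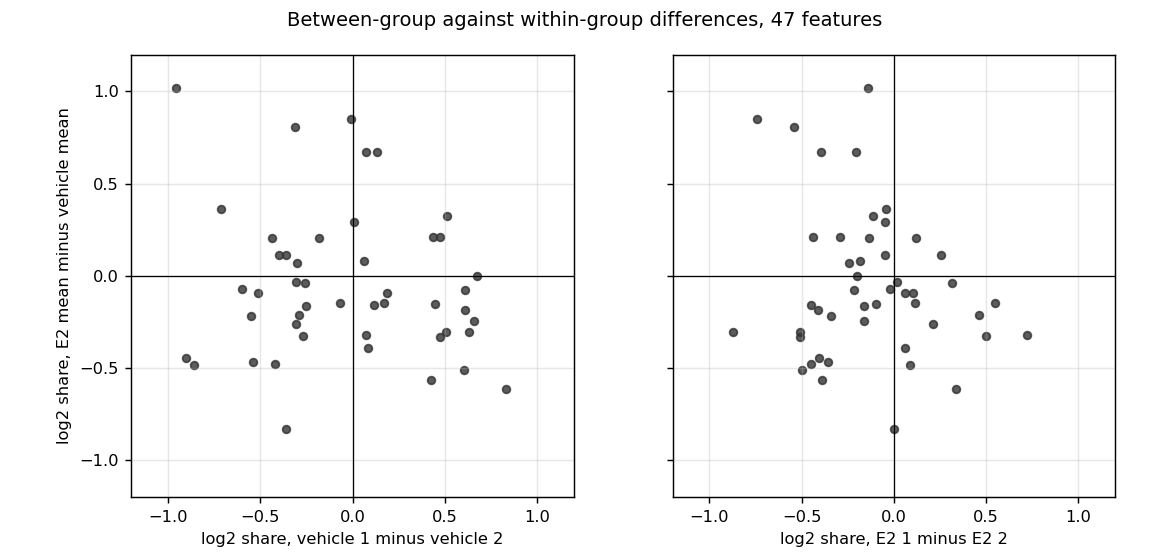
Difference in log2 share between the E2 and vehicle means (vertical axis) against the difference between the replicate arrays of a group (horizontal axis; vehicle on the left, E2 on the right), a point for each of the 47 features. The SD over features was 0.40 vertically and 0.48 and 0.34 horizontally, where the vertical values average 2 arrays on each side and the horizontal ones compare single arrays, so the spreads are not on equal terms.

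The members were also described in 3 sets by mean share. Among the 10 members of highest mean share, 6 had a higher mean log2 share with E2, and the median difference was 0.10. Among members 11 to 30, with mean shares from 0.660% to 1.91%, 4 of 20 were higher, and the median difference was -0.30. This middle set held 21.1% and 19.6% of the signal with vehicle and 15.9% and 18.7% with E2. Among members 31 to 47, with mean shares from 0.244% to 0.621%, 6 of 17 were higher, the median difference was -0.10, and the set held 6.07% and 6.48% with vehicle and 6.22% and 6.71% with E2. Over the 111 features tested in log2 share, members included, 39 were higher, and the median difference was -0.16. A share falls when another rises, so these sets are not independent. The sets were cut by mean share on these same arrays, so their totals are a description.

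No member passed the test between groups after quantile normalization, which gives all arrays the same distribution of intensities. Of the 112 BM features tested, 0 were called by limma at an adjusted p under 0.05 (0%), and of the 47 members 0 were called. An unadjusted p under 0.05 was found in 6 members and in 12 of the 112 features. Among the members, 22 had a higher and 23 a lower mean with E2, with differences from -0.54 to 0.77 in log2 intensity and a median of 0. The 95% confidence interval of a member had a median half-width of 0.51. In log2 share, 0 members were called against 1.80% of the 111 features tested (BM10710 and BM11277, higher by 1.48 and 1.70 on the log2 scale, neither a member and both named after their values were seen), and 4 members and 16 of the 111 features had an unadjusted p under 0.05.

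BM10206 had the smallest p among the members after quantile normalization, whereas BM11177 had it in log2 share (limma adjusted p = 0.117) and with the median of the spots. BM10206 ranked 28 on both vehicle arrays, 13 on E2 1 and 14 on E2 2, and its shares were 0.704% and 0.641% with vehicle and 0.995% and 1.15% with E2. Both E2 shares lay above both vehicle shares, by 1.59-fold in the mean. The difference was 0.67 in log2 share (limma SE 0.37, adjusted p = 0.384) and 0.77 in quantile-normalized log2 intensity (limma SE 0.11, adjusted p = 0.194). When spots were summarised by their median, BM10206 (0.70, limma adjusted p = 0.0295) and BM11177 (0.74, limma adjusted p = 0.0241) passed after quantile normalization. That fit gave both the same SE (0.21), a spread pooled over features, and features are not replicates of the 2 arrays a group. With spot means BM11177 had an SE of 0.24 (limma adjusted p = 0.357) and did not pass. BM11177 had shares of 0.151% and 0.294% with vehicle and of 0.406% and 0.448% with E2.

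BM10653 came next in the same direction. Its shares were 0.304% and 0.289% with vehicle and 0.412% and 0.542% with E2, and the groups did not overlap. The difference was 0.57 in quantile-normalized log2 intensity (limma SE 0.15, adjusted p = 0.357). In the other direction, BM10383 had shares of 1.16% and 1.495% with vehicle and of 0.740% on each E2 array, a mean 1.78-fold lower with E2. Its difference of -0.54 did not pass (limma SE 0.19, adjusted p = 0.357). BM10719 had shares of 0.998% and 0.655% with vehicle and of 0.478% and 0.674% with E2, and its groups overlapped (difference -0.41, limma SE 0.21, adjusted p = 0.419).

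On the deposited scale, which leaves differences in overall brightness between arrays in place, all 47 members had a lower mean with E2. The same held for 110 of the 112 features tested, members included. The median difference in log2 net signal was -1.43, and the members' summed net signal was 3.55-fold below the vehicle mean on E2 1 and 1.68-fold below it on E2 2. By limma 26 of the 47 members fell at an adjusted p under 0.05. Of all 112 features tested 29 were called (25.9%), with these 26 members among them. Deposited values have no background subtracted. These values were not normalized between arrays beyond the deposited scaling, so a difference in the overall brightness of 1 array entered every feature's test. The fit also gave every feature the same SE (0.44), and features are not replicates of the 2 arrays a group. The count was 46 members (87 of 119 features) without E2 2, 3 members (3 of 117 features) without E2 1 and 0 without either vehicle array. In these fits 1 array stands for a group, and its spread is taken from the other group. CM00001, whose nature is not known here, had deposited intensities of 33948 and 28951 with vehicle and of 29002 and 31520 with E2, and the groups overlapped. An unequal amount, labelling or hybridisation of small RNA between arrays was not tested, and in such bulk tissue fewer cells of a type and less RNA per cell cannot be told apart.

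Spots of a member agreed within an array about as well as spots of other detected features. The median coefficient of variation over the 4 spots of a member was 8.59% on vehicle 1, 6.00% on vehicle 2, 6.67% on E2 1 and 15.8% on E2 2. For the other BM features above the 95th percentile of the empty spots it was 9.57%, 6.996%, 6.16% and 13.5%. E2 2 thus had the widest spot spread in both sets, and 8 members exceeded 20% there, against 1 on vehicle 1 (BM10757, 48.7%, named after its value was seen) and 0 on the other arrays. CM00001 had a coefficient of variation of 6.998% on E2 2 and of 10.1% on vehicle 1.

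The 2 arrays of the other platform, replicate 3 of each group, gave a different degree of concentration. These arrays share no feature ID with the others and have no empty spots, so background was the median of the 377 features left after a bright feature printed 12 times was set aside. The brightest feature, PS20145 on both, held 56.8% of the net signal on vehicle 3 and 16.3% on E2 3, and the 10 brightest held 78.6% and 40.2%. With the same background rule, the 10 brightest BM features held 63.7% on vehicle 1, 65.7% on vehicle 2, 68.9% on E2 1 and 65.0% on E2 2. The summed net signal of E2 3 was 6009 against 51600 on vehicle 3. Whether this dimness relates to the lower concentration on E2 3 was not tested. When only features above the median plus 3 median absolute deviations were summed, 55 features remained on vehicle 3 and 33 on E2 3. The brightest feature then held 59.7% on vehicle 3 and 25.4% on E2 3, and the 10 brightest held 82.5% and 62.6%. On the 4 arrays of the main platform the 10 brightest then held 64.2%, 66.3%, 70.9% and 66.1%. With 1 array a group on the other platform no test was made.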

How the data were processed

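Per the labels' protocols, small RNA isolated from 100 µg of total RNA on a flashPAGE fractionator was coupled to Cy5. Per the file headers, each array's file holds raw intensity for every spot, and BM features have 4 spots. In the value tables the authors deposited scaled intensity: within 0.1%, between 95.5% and 97.6% of an array's values were the average of a feature's spots multiplied by 1 factor per array, with no background subtracted and no log. For the scanner and spot-finding software, the sources used here give nothing. Members and lists were chosen with earlier results of these data known.

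Shares, ranks and concentration were computed from the deposited values in Python 3.11.15 with pandas 2.3.3. For tests, raw spot means were log2-transformed, quantile-normalized over the 640 BM features and fitted with limma 3.58.1 in R 4.3.3 (lmFit, eBayes, two-sided, Benjamini-Hochberg over all features tested, no replicate block). Tested features lay above the 95th percentile of the array's empty spots on both arrays of at least 1 group. All 47 members did so on all 4 arrays, as did 80 BM features in all. Log2 share was tested where net signal was above 0 on all 4 arrays. The SE on this scale was nearly the same for all members, so its p-values rest on a spread shared over features. Concentration was compared with an exact two-sided permutation test.

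Named features are the 10 of highest mean share, others among the 5 brightest of an array, the 2 of smallest p in each direction, those with the largest rank change, and those nearest the threshold. The fit was tested on simulated data. The number of arrays limits the precision. Replicate numbers are not said to pair samples.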

Additional observations from a re-analysis of the deposited data

Results flagged for a closer look

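An empty spot of vehicle 1 read 3443 in raw intensity, where the 194 empty spots had a median of 143.7 and the next highest read 320.9. The same position read 197.3 on vehicle 2, 198.0 on E2 1 and 177.1 on E2 2. It drew attention as signal where no feature is listed. Background was the median of the empty spots, and with their mean instead the share of the 10 brightest features stayed within the spread between replicates.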

How the results depend on the processing

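Background subtraction mattered most for concentration. With none subtracted, the 10 brightest held a mean of 38.6% in place of 65.4%, the E2 minus vehicle difference became -12.5 points in place of 2.24, the members' share was 55.8% in place of 90.3%, and 80% of the signal took 303.8 features in place of 24.5. With the 95th percentile of the empty spots these were 69.5%, 6.37 points, 94.5% and 19. When only features above the empty spots were summed, the members held 92.5% of the net signal. The members' share was 95.6% with a threshold of 200 (77 members) and 81.7% with 500 (27 members). With only members summed, the 10 brightest held 72.4% and 15.5 features held 80%. Without the 3 brightest members, an alternative chosen after seeing the data, the values were 51.2%, 84.4% and 35. Leaving out each array gave 64.3% to 66.5%, -0.11 to 4.58 points, 89.7% to 90.8% and 23.7 to 25.3 features. The median rank change of 2 was 4 at a threshold of 200 and 2 to 3 without an array. The count of 9 features among the 10 brightest of every array held in the 6 alternatives tried.

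The 0 members called became 33 with median centring (40 of the 112 features) and 26 with deposited values (29 of 112), all lower with E2, and 2 with the median of the spots (3 of 112), both higher. With deposited values and with the median of the spots, the spread was pooled over features. It stayed 0 in the other 13 alternatives, with each array left out among them, and the smallest adjusted p of a member ranged from 0.0541 to 0.598 there. Signs turned with median centring and deposited values for BM10206 (-0.53 and -0.52), BM10653 (-0.44 and -0.43), BM10436 (-0.99 and -0.97) and BM11050 (-1.16 and -1.15). BM11050 also turned without an array (-0.16 without vehicle 1, up to 0.19 without vehicle 2), and BM10606 with net signal centred on the members (0.033). The replicate block called 0 members after quantile normalization and 0 in log2 share, and moved the 26 called with deposited values to 0. Deviations of same-numbered arrays correlated at -0.26 across the 112 tested features, and a crossed pairing, added after seeing the data, called 0. Signal over background limits the dim members.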
